A study of Mus musculus with 7 samples.

Results

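The genes described here are 10 members of the muscle atrophy programme of ubiquitin ligases and FOXO factors, measured in C2C12 myotubes with and without electrical pulse stimulation (EPS). They were matched by symbol, and each of the 10 symbols was found among the 26607 genes listed for every library. All 10 had reads in at least 1 library and entered the test, 9 of them with a mean above 1 CPM, the unit of the values, in which a gene's reads are scaled to the total of its library. C2C12 cells are immortal mouse myoblasts that fuse into multinucleated myotubes when serum is withdrawn, and EPS makes such myotubes contract in the dish. The EPS group holds 4 libraries (replicates 1 to 4) of myotubes that were differentiated for 3 days, stimulated for 24 h and left to rest for 1 h before lysis. The control group holds 3 libraries (replicates 1, 3 and 4) of unstimulated myotubes of the same line. The comparison asks which transcripts differ after 24 h of EPS and 1 h of rest. Both groups come from this 1 cell line, without nerve, vessels or circulating hormones. Nothing says that the libraries came from separate cultures, so p-values measure only the spread between these libraries, which may be technical.

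Ubiquitin ligases choose the proteins that the proteasome will degrade. Trim63 (MuRF1), Trim54 (MuRF3) and Trim55 (MuRF2) encode RING finger ligases of the sarcomere that bind titin, thick filament or microtubule structures. Fbxo32 (atrogin-1, MAFbx), Fbxo30 (MUSA1) and Fbxo40 encode F-box proteins, the subunits that carry substrates to SCF ligase complexes. Trim63 and Fbxo32 are the classic atrogenes, induced in muscle by denervation, fasting and glucocorticoids. Foxo1, Foxo3 and Foxo4 encode forkhead factors that activate atrogenes when they are in the nucleus, and AKT, acting downstream of insulin and IGF-1, phosphorylates them and keeps them in the cytoplasm. Klf15 encodes a zinc finger factor induced by the glucocorticoid receptor that turns on amino acid catabolism and some atrogenes. FBXO40 is a muscle-restricted F-box protein known for ubiquitinating IRS1, the adaptor that carries the insulin and IGF-1 signal to AKT.

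Sequences of start sites were read from RefSeq on GRCm38.p6, as windows of 250 bases before to 50 bases after each annotated start. The table held 8 windows for 7 of the 10 genes, and Trim55, Fbxo32 and Foxo4 had no entry. The 4 sequences given here run in the direction of transcription: both starts of Fbxo40, the gene with the difference that passed the test, and those of Trim63 and Trim54, the MuRF genes with an entry. The windows lie at chr16:36990418-36990717 (Fbxo40 outer start, minus strand), chr16:36979087-36979386 (Fbxo40 inner start, minus strand), chr4:134314870-134315169 (Trim63, plus strand) and chr5:31116362-31116661 (Trim54, plus strand). Capitals mark exact matches, on either strand, to the E-box CAGCTG bound by myogenic factors, to the forkhead site GTAAACA or to the TATA box TATAAA.
Fbxo40 outer start: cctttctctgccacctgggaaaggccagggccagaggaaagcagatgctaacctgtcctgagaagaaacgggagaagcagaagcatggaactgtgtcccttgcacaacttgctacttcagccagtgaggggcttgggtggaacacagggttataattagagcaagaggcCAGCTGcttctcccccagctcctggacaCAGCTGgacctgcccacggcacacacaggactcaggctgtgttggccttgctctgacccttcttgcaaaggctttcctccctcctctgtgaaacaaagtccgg
Fbxo40 inner start: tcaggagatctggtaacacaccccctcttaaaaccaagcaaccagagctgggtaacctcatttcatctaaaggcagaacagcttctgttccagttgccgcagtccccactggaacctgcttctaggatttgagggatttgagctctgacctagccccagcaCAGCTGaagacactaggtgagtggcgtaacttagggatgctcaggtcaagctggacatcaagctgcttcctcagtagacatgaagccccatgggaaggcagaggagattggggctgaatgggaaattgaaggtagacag
Trim63: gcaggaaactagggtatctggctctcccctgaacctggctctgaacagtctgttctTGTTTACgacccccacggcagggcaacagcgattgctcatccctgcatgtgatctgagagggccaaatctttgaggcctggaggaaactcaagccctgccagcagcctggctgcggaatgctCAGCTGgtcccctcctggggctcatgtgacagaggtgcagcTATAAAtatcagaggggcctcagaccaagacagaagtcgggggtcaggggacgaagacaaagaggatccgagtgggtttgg
Trim54: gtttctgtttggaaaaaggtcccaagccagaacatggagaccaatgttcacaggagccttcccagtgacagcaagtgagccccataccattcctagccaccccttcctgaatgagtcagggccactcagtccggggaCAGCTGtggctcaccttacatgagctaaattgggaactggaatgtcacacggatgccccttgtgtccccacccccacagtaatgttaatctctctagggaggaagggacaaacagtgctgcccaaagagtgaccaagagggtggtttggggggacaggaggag
The E-box occurred in both Fbxo40 windows, 81 to 76 and 53 to 48 bases upstream of the outer start and 89 to 84 bases upstream of the inner start. It also stood 72 to 67 bases upstream of Trim63 and 113 to 108 bases upstream of Trim54. Of all 32817 windows in the table, 16.3% held this E-box, against 4 of the 8 windows of these genes. The forkhead letters were found 194 to 188 bases upstream of Trim63, on the opposite strand (TGTTTAC as printed), and in no other of the 8 windows, against 3.65% of all windows. TATAAA stood 31 to 26 bases upstream of the same gene and occurred in 13.6% of all windows. The MEF2 search used CTA and TAG with 4 free bases between them (3.69% of all windows). The glucocorticoid receptor search used the palindrome AGAACA and TGTTCT with 3 free bases between them (0.00914% of all windows). Neither had an exact match in the 8 windows, which does not show that a site is absent. The outer Fbxo40 window holds ttataattag, which differs from the MEF2 letters only in its first base. Directly before its forkhead letters the Trim63 window holds tgaacagtctgttct, which differs from the palindrome only in its first base. Such near matches were not counted over all windows. No motif letters overlapped another match, and a match is a description of letters only.

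The libraries held 16616917 to 22120641 reads in control and 18830229 to 21892568 in EPS, so that 3 reads corresponded to 0.136 to 0.181 CPM. Control replicate 4 stood apart: in it 359 genes had 1 to 5 reads and 14014 were above 0, while the other 6 libraries had 2670 to 3181 and 16144 to 16984 such genes. The difference of each of the 10 genes is therefore also given without it. Myotube markers were abundant in all libraries, and all 12 of the list were measured. Their summed level was 18241 to 21594 CPM in control and 12274 to 19230 CPM in EPS. Their median log2 fold change was -0.52, with 3 lower and 0 higher at an unadjusted P under 0.05. In control replicates 1, 3 and 4, Myog was at 473, 565 and 1794 CPM and Ttn at 7569, 7401 and 4128 CPM. The marker median was not recomputed without control replicate 4. The 10 markers of undifferentiated or cycling myoblasts summed to 313 to 370 CPM in control and 403 to 1051 CPM in EPS. Of these, 6 were higher at an unadjusted P under 0.05, Mki67 having the highest level, and Id1 and Id3 were lower. At that threshold 8.4% of all genes tested were higher and 3.21% lower. Fewer cells of a type and less RNA per cell cannot be told apart in these bulk samples. The 6 fibroblast markers summed to 147 to 245 CPM in control and 173 to 357 CPM in EPS, of which 2 were higher (Ly6a and Pdgfra) and 2 lower (Lum and Dpt) at an unadjusted P under 0.05. In the same order the 6 leukocyte markers summed to 1.57 to 2.47 and 1.86 to 2.97 CPM, and the 5 endothelial markers to 1.75 to 2.03 and 1.60 to 2.65 CPM. Ptprc, Emr1 and Kdr, and all 5 adipocyte markers, had no more than 3 reads in any library. The part of these marker levels in the results was not tested.

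Of the 10 genes, only Fbxo40 differed between EPS and control at an adjusted p under 0.05 with limma, and it was higher in EPS. At that threshold 0.0992% of the 19144 genes tested were called higher and 0.0418% lower, 0.141% in all. Fbxo40 was also the only one past a second call rule, a difference of over 2-fold with P under 0.01 in the same fit, which took 0.966% of all genes as higher and 0.439% as lower, 1.41% in all. In 3 of the 10 genes the EPS and control libraries did not overlap, Fbxo40 and Trim54 being higher and Foxo1 lower in EPS, where 10.6% of all genes tested showed no overlap (7.76% higher and 2.85% lower). The same 3 had an unadjusted P under 0.05, as did 11.6% of all genes (8.4% higher and 3.21% lower). Differences are given below as log2 fold changes of CPM + 1, EPS minus control, which understate changes of genes with few reads. The median difference of the 12256 genes with a mean of at least 1 CPM was 0.10 on the deposited scale, -0.0048 after median-of-ratios scaling and 0.0052 after quantile normalization, so that a member near 0.10 moved with the bulk of the genes.

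**Figure D1:**
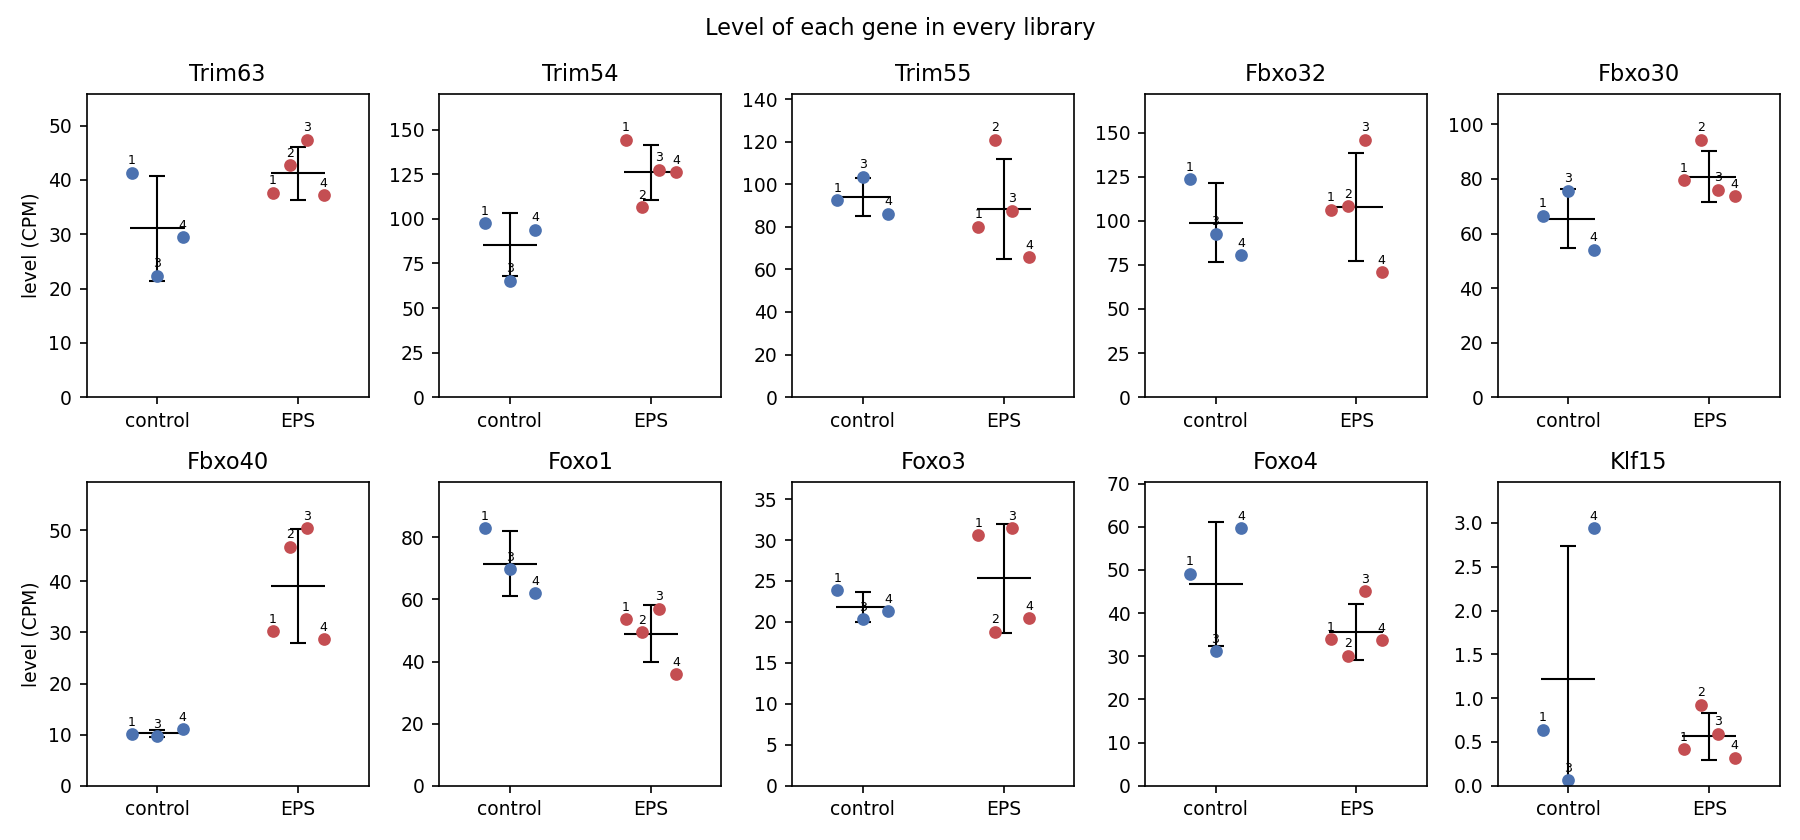
Level in CPM of each of the 10 genes in every library, with a linear axis from 0 in each panel; points are libraries labelled by replicate number, the long line is the group mean and the bars are 1 SD (n = 3 control, n = 4 EPS). The 4 EPS libraries of Fbxo40 sit between 28.7 and 50.4 CPM, above the control libraries at 9.63 to 11.0 CPM.

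Among the F-box genes, Fbxo40 rose and Fbxo32 and Fbxo30 did not pass the test. Fbxo40 (chr16:36963460-36990467, minus strand) was at 10.1 (replicate 1), 9.63 (replicate 3) and 11.0 CPM (replicate 4) in control. In EPS replicates 1 to 4 it was at 30.2, 46.8, 50.4 and 28.7 CPM. The lowest EPS library thus lay well above the highest control library, and the EPS libraries fell into a higher pair (replicates 2 and 3) and a lower pair (replicates 1 and 4). The control mean was 10.3 ± 0.709 CPM (SD, n = 3) and the EPS mean 39.0 ± 11.2 CPM (SD, n = 4). Its log2 fold change was 1.79 (SE 0.24, adjusted p = 0.0443 with limma), or 3.45-fold with a 95% interval of 2.37 to 5.03, and it ranked 18 of the 19144 genes by P. An exact two-sided permutation test over all 35 arrangements of the group labels gave p = 0.0286, the smallest value that design allows. Each EPS library on its own was 2.79 to 4.91 times the control mean.

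The size of the Fbxo40 difference held while its adjusted p did not. Over 17 other ways of processing, its log2 fold change ranged from 1.65 to 1.92, and its P stayed under 0.01 in each. The adjusted p was above 0.05 in 9 of the 17. It was 0.000441 with edgeR's quasi-likelihood test on reads recovered from the CPM, 0.0569 after quantile normalization, and 0.0574 to 0.125 when any 1 of the 7 libraries was left out. With the replicate number as a block in limma it was 0.510, although nothing says that equal numbers mark a shared culture or day. Without control replicate 4 the log2 fold change was 1.84 (adjusted p = 0.0821).

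Fbxo32 (chr15:58175879-58214932, minus strand) encodes the F-box protein that ubiquitinates MyoD and eIF3f. In the same order of replicates, which also holds for the genes that follow, its level was 123.8, 92.7 and 80.5 CPM in control and 106.3, 108.4, 145.9 and 71.0 CPM in EPS. The groups overlapped, and both the highest and the lowest of the 7 libraries were EPS libraries. The difference was 0.10 on the log2 scale (SE 0.25, 95% interval -0.47 to 0.67, adjusted p = 0.882 with limma). Its sign turned after median-of-ratios scaling (-0.010), without control replicate 4 (-0.034) and without EPS replicate 3 (-0.057), so no direction can be given. A difference of 2-fold in either direction lay outside that interval.

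Fbxo30 (chr10:11281330-11298052, plus strand) encodes the F-box protein MUSA1, which in muscle is held down by BMP signalling. It was at 66.5, 75.7 and 54.1 CPM in control and at 79.5, 94.4, 76.1 and 73.7 CPM in EPS. Only EPS replicate 4 lay under the highest control library. EPS minus control was 0.31 on the log2 scale (SE 0.16, 95% interval -0.06 to 0.68, adjusted p = 0.508 with limma), with an exact permutation p of 0.0571, and it was 0.18 without control replicate 4 and 0.20 after median-of-ratios scaling.

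None of the 3 MuRF genes passed the test. Trim54 (chr5:31116712-31137630, plus strand), whose product stabilises microtubules and sarcomeres, was at 97.5, 65.4 and 94.0 CPM in control and at 144.4, 106.6, 127.7 and 126.3 CPM in EPS. All 4 EPS libraries lay above all 3 control libraries. The mean was 85.6 ± 17.6 CPM (SD, n = 3) in control and 126.2 ± 15.5 CPM (SD, n = 4) in EPS. The log2 fold change was 0.57 (SE 0.18, 95% interval 0.15 to 0.98), with P = 0.0127 and an adjusted p of 0.263 from limma and an exact permutation p of 0.0286. It was 0.65 without control replicate 4 and 0.46 after median-of-ratios scaling, and over the 17 alternatives it kept its sign with adjusted p from 0.228 to 0.539.

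Trim63 (chr4:134315120-134329629, plus strand), whose product targets thick filament proteins, was at 41.3, 22.4 and 29.4 CPM in control and at 37.6, 42.7, 47.4 and 37.1 CPM in EPS. Control replicate 1 lay inside the EPS range, and the other 2 control libraries lay below it. The mean was 31.1 ± 9.58 CPM (SD, n = 3) in control and 41.2 ± 4.82 CPM (SD, n = 4) in EPS, a log2 fold change of 0.43 (SE 0.22, 95% interval -0.06 to 0.92, adjusted p = 0.486 with limma). The exact permutation p was 0.114. Leaving out control replicate 1 gave 0.65 and leaving out control replicate 3 gave 0.23, the highest and lowest values over the 17 alternatives, and without control replicate 4 it was 0.42.

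Trim55 (chr3:19644474-19692421, plus strand), which encodes the MuRF that binds titin and microtubules during sarcomere assembly, was at 92.4, 103.6 and 86.3 CPM in control. In EPS it was at 80.0, 120.9, 87.5 and 65.6 CPM, so that the highest and the lowest library were both EPS. On the log2 scale the difference was -0.12 (SE 0.21, 95% interval -0.58 to 0.35, adjusted p = 0.869 with limma). It was -0.18 without control replicate 4 and 0.012 without EPS replicate 4.

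**Figure D2:**
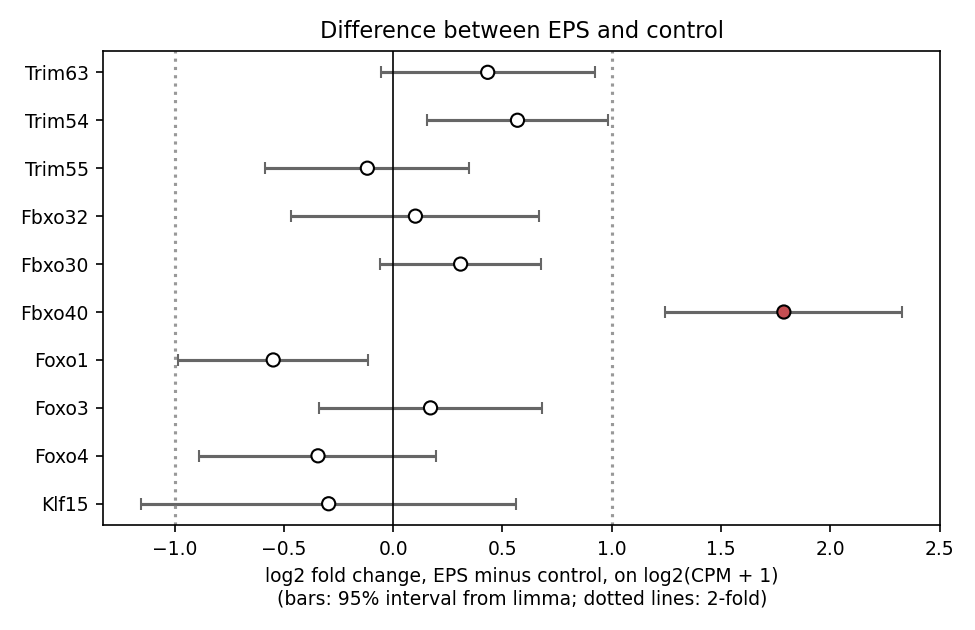
Log2 fold change of CPM + 1, EPS minus control, for each of the 10 genes; points are limma estimates, bars are 95% intervals, dotted lines mark 2-fold and the filled point is the gene with an adjusted p under 0.05. Only Fbxo40 at 1.79 lies past 2-fold, while the intervals of Trim54 (0.15 to 0.98) and Foxo1 (-0.98 to -0.11) leave out 0 without passing the adjusted threshold.

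None of the 3 FOXO genes passed the test, and only Foxo1 had groups that did not overlap. Foxo1 (chr3:52268336-52353221, plus strand), the FOXO factor best known for driving Pdk4 and metabolic genes in muscle, was at 82.9, 69.7 and 62.1 CPM in control and at 53.6, 49.3, 57.1 and 35.9 CPM in EPS. Every EPS library lay below every control library. The mean was 71.6 ± 10.5 CPM (SD, n = 3) in control and 49.0 ± 9.26 CPM (SD, n = 4) in EPS. The log2 fold change was -0.55 (SE 0.19, 95% interval -0.98 to -0.11), with P = 0.0192 and an adjusted p of 0.305 from limma and an exact permutation p of 0.0571. Without control replicate 4 it was -0.64, and after median-of-ratios scaling -0.66. Over the 17 alternatives the value ran from -0.66 to -0.41 with adjusted p from 0.116 to 0.558.

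Foxo3 (chr10:42181841-42276755, minus strand), known as a direct activator of Fbxo32 and of autophagy genes, was at 23.9, 20.3 and 21.3 CPM in control and at 30.6, 18.8, 31.4 and 20.4 CPM in EPS. EPS replicates 1 and 3 lay above the control range, EPS replicate 4 inside it and EPS replicate 2 below it. Its difference on the log2 scale was 0.17 (SE 0.22, 95% interval -0.34 to 0.68, adjusted p = 0.813 with limma), and 0.16 without control replicate 4. Over the 17 alternatives it ran from 0.036 after quantile normalization to 0.30 without EPS replicate 2, with 0.059 without EPS replicate 3, 0.071 without EPS replicate 1, 0.26 without EPS replicate 4 and 0.063 after median-of-ratios scaling.

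Foxo4 (chrX:101254528-101260873, plus strand), the least studied of these factors in muscle, was at 49.1, 31.2 and 59.6 CPM in control and at 34.0, 30.1, 45.0 and 33.7 CPM in EPS. The groups overlapped, since control replicate 3 was nearly as low as the lowest EPS library. This gave a log2 difference of -0.34 (SE 0.24, 95% interval -0.89 to 0.20, adjusted p = 0.632 with limma). It was -0.15 without control replicate 4 and -0.60 without control replicate 3, so its size rested on these libraries.

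Klf15 (chr6:90462576-90475238, plus strand) was barely detected. The control libraries gave 11, 1 and 65 reads and the EPS libraries 9, 19, 13 and 6, which is 0.64, 0.060 and 2.94 CPM against 0.42, 0.93, 0.59 and 0.32 CPM. Both the highest and the lowest value were in control. The log2 fold change was -0.30 (SE 0.38, 95% interval -1.15 to 0.56, adjusted p = 0.813 with limma). It was 0.23 without control replicate 4, the library with the fewest genes at 1 to 5 reads. In counts, where no pseudocount of 1 CPM is added, edgeR's quasi-likelihood test gave -1.25 (adjusted p = 0.563). No difference in Klf15 was detected in these libraries.

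**Figure D3:**
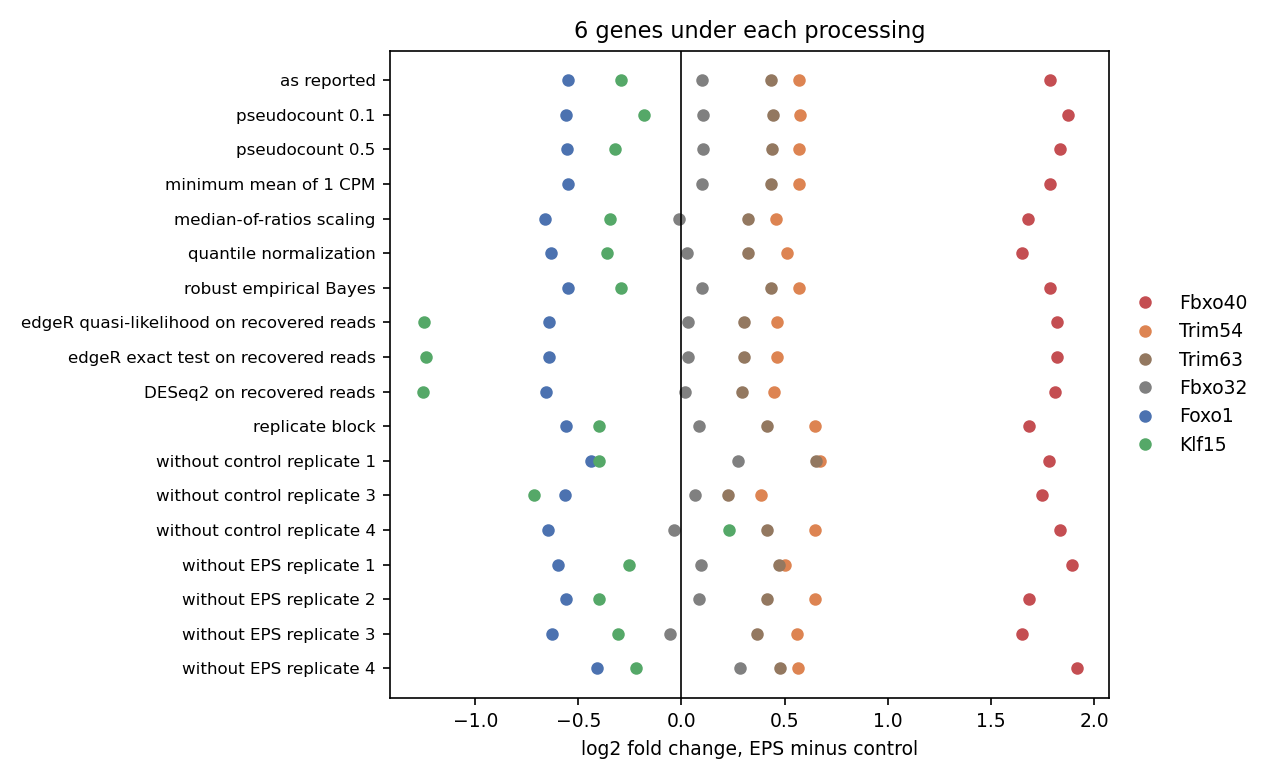
Log2 fold change, EPS minus control, of 6 of the genes as reported (top) and under each of 17 alternatives, 1 row each; colours are genes and the vertical line is 0. Fbxo40 stays between 1.65 and 1.92, Foxo1 stays below 0, Trim54 and Trim63 stay above 0, and Fbxo32 and Klf15 each fall on both sides of 0.

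Compared per length of exon (GENCODE M21 gene models on GRCm38), the transcripts differed widely in level. Trim54 was the highest, at 59.6 ± 12.3 CPM per kb (SD, n = 3) in control and 87.9 ± 10.8 CPM per kb (SD, n = 4) in EPS. Trim55 came next, at 35.4 ± 3.30 and 33.3 ± 8.80 CPM per kb. In both groups these MuRF genes were separated from each other and from the rest without overlap.

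In control a middle set followed, made of Fbxo32 (14.2 CPM per kb), Foxo4 (13.4), Fbxo30 (12.6), Trim63 (10.9) and Foxo1 (8.26). Each of these overlapped its neighbour in the order, so their ranks are not distinct. Foxo3 at 2.89 ± 0.243, Fbxo40 at 1.86 ± 0.129 and Klf15 at 0.43 ± 0.545 CPM per kb (SD, n = 3) stood below, each without overlap with the gene above it.

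In EPS, Fbxo40 reached 7.07 ± 2.03 CPM per kb (SD, n = 4) and moved from place 9 to place 7. It then lay between Foxo4 at 10.2 and Foxo1 at 5.65 CPM per kb and overlapped both. Fbxo30 (15.6), Fbxo32 (15.5) and Trim63 (14.5) overlapped one another, while the libraries of Trim63 and Foxo4 no longer did. Foxo3 at 3.34 CPM per kb overlapped Foxo1 by a narrow margin, and Klf15 at 0.20 CPM per kb remained the lowest.

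Within families the same levels can be read as shares, summed per length. Fbxo40 made up 5.68%, 5.90% and 8.35% of the 3 F-box genes in the control libraries, and 15.2%, 20.1%, 20.4% and 17.6% in the EPS libraries, so that the groups did not overlap. Trim54 made up 49.3% to 60.5% of the MuRF genes in control and 55.1% to 70.0% in EPS, with overlapping libraries. Foxo3 made up 10.4% to 13.7% of the FOXO genes in control and 14.8% to 20.2% in EPS, without overlap, although its own level overlapped. These shares were not tested, and each moves with the other genes of its family.

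**Figure D4:**
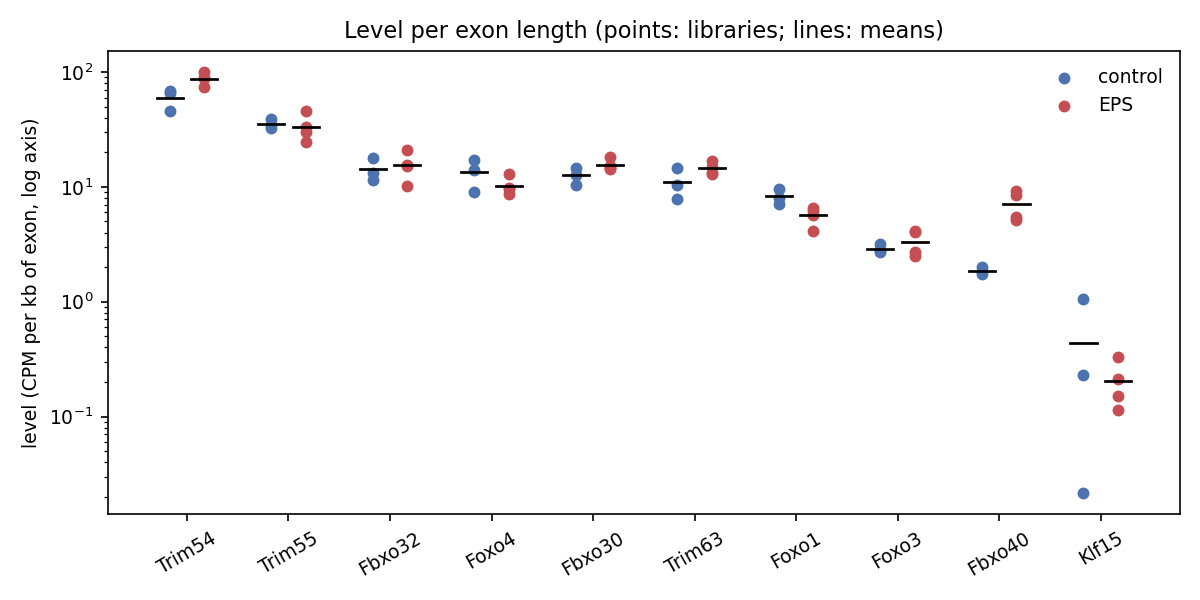
Level of each gene per kb of exon on a log axis (CPM per kb), ordered by the control mean; points are libraries, blue for control and red for EPS, and lines are group means. Trim54 and Trim55 are highest in both groups, Fbxo40 goes from 1.86 to 7.07 CPM per kb, and Klf15 is lowest.

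Some of these loci share ground with other annotated genes, and the counting was not stated to use strand. Trim54, Fbxo32 and Foxo1 are each overlapped by an antisense gene (Gm15469, Gm15943 and Gm20402), Foxo1 also by Gm38034, and Trim55 holds the sense intronic gene BC002189. None of these 5 is listed with a level of its own, so reads from them cannot be told apart from reads of the members. Fbxo40, Trim63, Fbxo30, Foxo3, Foxo4 and Klf15 overlap no other gene.

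Around these genes, 6 pathway lists were counted in the same fit, and as fitted with limma no gene of any list had an adjusted p under 0.05. With edgeR's quasi-likelihood test on the recovered reads 6 of their 106 different genes did, against 1.51% of all genes, namely Bnip3 and Pdk4 higher and Mybpc1, Myh4, Myod1 and Cebpd lower. The exact test of edgeR gave 8, against 2.45% of all genes, and DESeq2 gave 10, against 3.39% of the 14676 genes with an adjusted p. The nearest were other ubiquitin ligases of muscle, 18 genes tested. None passed P under 0.01 and 2-fold. Their median log2 fold change was 0.20, against 0.041 over all genes tested and 0.10 over those with a mean of at least 1 CPM. Without control replicate 4 the list's median was 0.076. At P under 0.05, 2 were higher and none lower, where 8.4% of all genes tested were higher and 3.21% lower. Those 2, named after their values were seen, were Asb15, a SOCS box protein of muscle, at 0.94 (adjusted p = 0.139; 0.89 without control replicate 4; 1.73 with edgeR's quasi-likelihood test, which adds no pseudocount of 1 CPM), and Stub1, the chaperone-linked ligase CHIP, at 0.51 (adjusted p = 0.231; 0.53 without control replicate 4). Over the 17 alternatives Asb15 had an adjusted p under 0.05 in 2 and passed P under 0.01 and 2-fold in 8. Of 14 SCF core subunits and E2 enzymes, the machinery that F-box proteins and MuRFs work with, none reached P under 0.05 in either direction, and the median was 0.08.

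Regulators of FOXO, 22 genes tested, gave no call at P under 0.01 and 2-fold, and their median was 0.08. At P under 0.05, 2 were higher and 1 lower, where 8.4% of all genes tested were higher and 3.21% lower. Without control replicate 4 the 2 higher became 0. The 2, named after their values were seen, encode catalytic subunits of the energy sensor AMPK: Prkaa1 differed by 0.38 (adjusted p = 0.368, all EPS libraries above control; 0.31 without control replicate 4) and Prkaa2 by 0.56 (adjusted p = 0.415; 0.32 without control replicate 4). The 1 lower gene was Irs1, which is also the substrate of FBXO40. Irs1 was at 225.4, 185.5 and 162.5 CPM in control and at 166.6, 106.6, 155.9 and 113.3 CPM in EPS. Only EPS replicate 1 lay above the lowest control library. Its log2 fold change was -0.51 (SE 0.21, adjusted p = 0.388 with limma), with -0.38 without control replicate 1 and -0.62 without control replicate 4. Akt1, the kinase that phosphorylates FOXO, differed by -0.08 (adjusted p = 0.869; 0.07 without control replicate 4).

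FOXO target genes, 25 tested, held 2 that rose at P under 0.01 and more than 2-fold and none that fell, with 9 higher and none lower at P under 0.05. Of all genes tested, 0.966% were higher and 0.439% lower by the first of these rules, and 8.4% and 3.21% by the second. The list's median was 0.30. The pair were Bnip3, a mitophagy receptor, and Cat, the peroxide-degrading catalase. Bnip3 was at 47.6, 101.1 and 53.6 CPM in control and at 150.4, 411.1, 200.7 and 97.8 CPM in EPS, with EPS replicate 4 under control replicate 3. Its log2 fold change was 1.54 (SE 0.46, adjusted p = 0.231). Cat was at 58.9, 86.7 and 42.5 CPM in control and at 87.6, 158.6, 115.8 and 187.5 CPM in EPS, with all EPS libraries above control, and differed by 1.12 (SE 0.31, adjusted p = 0.200). Over the 17 alternatives Bnip3 ran from 1.16 to 1.87 and Cat from 0.87 to 1.38, with an adjusted p under 0.05 in 3 of them for Bnip3 and 2 for Cat. Without control replicate 4 their values were 1.41 and 0.87 and neither passed at P under 0.01 and 2-fold, which took the list's count from 2 to 0, and the list's count at P under 0.05 went from 9 to 5, where 7.37% of all genes were higher. Bnip3 also failed without control replicate 1 or EPS replicate 1, 2 or 3 and after median-of-ratios scaling (1.43) or quantile normalization. Cat also failed without control replicate 1 or EPS replicate 2 or 4, and with the replicate number as a block. Pdk4, the kinase that shuts off pyruvate dehydrogenase and a FOXO1 target, was named after its values were seen. It was at 23.4 to 29.8 CPM in control and 45.2 to 61.0 CPM in EPS, a difference of 0.97 (SE 0.17, adjusted p = 0.0730). Over the 17 alternatives it ran from 0.86 to 1.06, with an adjusted p under 0.05 in 5 and P under 0.01 with over 2-fold in 3, those without control replicate 3 or EPS replicate 1 or 3.

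Targets of the glucocorticoid receptor and KLF15, 15 of 16 tested, gave no call at P under 0.01 and 2-fold, and their median was -0.03. At P under 0.05, 1 was higher and 3 lower, where 8.4% of all genes tested were higher and 3.21% lower. The counts became 0 higher and 1 lower without control replicate 4. Cebpd, 1 of the 3 lower and named after its values were seen, differed by -1.26 (SE 0.53, adjusted p = 0.407 with limma). It was at 9.79, 20.9 and 51.9 CPM in control and at 9.40, 16.1, 6.67 and 5.42 CPM in EPS. The highest of these was control replicate 4. Cebpd had an adjusted p under 0.05 in all 3 count tests. The receptor gene Nr3c1 differed by 0.37 (adjusted p = 0.526), and its standard readouts Fkbp5 and Tsc22d3 by -0.013 (adjusted p = 0.987) and 0.19 (adjusted p = 0.828). Without control replicate 4, Nr3c1, Fkbp5 and Tsc22d3 differed by 0.27, 0.08 and 0.02. Over the 17 alternatives Nr3c1 ran from 0.25 to 0.58, Fkbp5 from -0.20 to 0.25 and Tsc22d3 from -0.04 to 0.34. None of the 3 had an adjusted p under 0.05 in any of these.

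Reported substrates of the ligases, 14 genes tested, had the lowest median of the 6 pathway lists, -0.52, with 2 that fell at P under 0.01 and more than 2-fold, none that rose, and 6 lower at P under 0.05, against 0.439% and 3.21% of all genes lower by these rules. The transcripts, not the proteins, were measured. The pair encode thick filament proteins: Myh4, the fast IIb myosin heavy chain, and Mybpc1, the slow myosin binding protein C. Myh4 was at 654.9, 524.8 and 363.0 CPM in control and at 237.5, 37.7, 85.2 and 80.3 CPM in EPS, a difference of -2.48 (SE 0.52, adjusted p = 0.108). Mybpc1 was at 39.8, 20.8 and 34.1 CPM in control and at 6.38, 6.53, 10.2 and 5.95 CPM in EPS, a difference of -1.96 (SE 0.28, adjusted p = 0.0542). In both genes the groups did not overlap, and both calls at P under 0.01 and 2-fold held under each of the 17 alternatives, with -2.71 and -1.88 without control replicate 4. Their adjusted p was under 0.05 in 7 of the 17 for Mybpc1 and 6 for Myh4, the 3 count tests included in both. The atrogin-1 substrates did not pass with limma. Myod1, the myogenic master factor, differed by -0.88 (adjusted p = 0.236; -0.73 without control replicate 4). Its adjusted p was under 0.05 in all 3 count tests (0.0492 with edgeR's quasi-likelihood test), and it passed P under 0.01 and 2-fold without control replicate 3 or EPS replicate 2. Eif3f, a translation initiation subunit, differed by 0.41 (adjusted p = 0.595), with 0.42 without control replicate 4, 0.25 without control replicate 3 and 0.64 without EPS replicate 2. Ckm, Des and Ttn of this list are also myotube markers, a list whose median was also -0.52, and the part of the myotube markers in the substrate list was not tested.

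**Figure D5:**
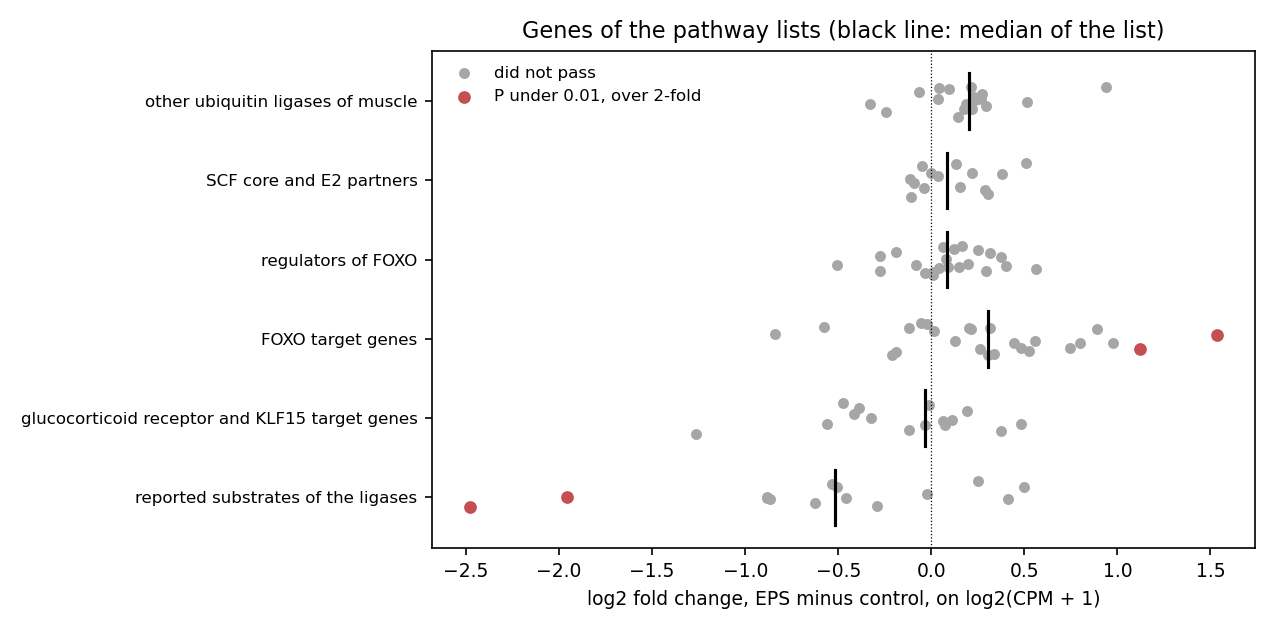
Log2 fold change of CPM + 1, EPS minus control, of each gene of the 6 lists; points are genes with vertical scatter only for legibility, black lines are list medians, and red points passed P under 0.01 and more than 2-fold. Bnip3 and Cat are the red points among FOXO targets, Mybpc1 and Myh4 those among substrates, and medians run from -0.52 to 0.30.

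Genes with the pattern most like Fbxo40 were found by the root-mean-square difference in centred log2(CPM + 1) over the 7 libraries, among 12255 genes with a mean of at least 1 CPM. The nearest was Ndrg2, an N-myc downstream-regulated gene, at 0.14, followed by Ikbkg at 0.18, Syn2 at 0.24, F13a1 at 0.25 and Lims2 at 0.26, where the pattern of Fbxo40 itself had an SD of 0.93. Ndrg2 was at 6.70, 6.02 and 6.01 CPM in control and at 15.4, 27.9, 30.3 and 14.7 CPM in EPS, with the same higher pair of EPS replicates 2 and 3. For Trim63, whose pattern had an SD of 0.33, the nearest genes were D430042O09Rik at 0.10, Mrgpre and Grn at 0.11, Bdkrb2 at 0.11 and Atat1 at 0.12. For Fbxo32, also with an SD of 0.33, they were Ptprf at 0.06, Peg13 at 0.08 and Pde4dip, Kdm5b and Lnpep at 0.10. Likeness over 7 libraries is a description only, and the genes compared come from the same libraries.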

How the data were processed

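RNA-seq was measured in 3 control and 4 EPS libraries of C2C12 myotubes. The authors selected poly(A) RNA, made directional libraries, sequenced paired-end reads of 100 bp and, per the submitters' processing notes, mapped them with STAR 2.5.4b to GRCm38. The authors deposited CPM, each gene's reads scaled to its library's total. The read counter, annotation, strand setting and treatment of multi-mapping reads are not given in the sources used here. In each library 100% of the values were whole multiples of 1 read (tolerance 0.01), which gave back the reads; these cover 16616917 to 22120641 per library.

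From the CPM, log2(CPM + 1) of the 19144 genes above 0 in at least 1 library was fitted with limma 3.58.1 in R 4.3.3 (empirical Bayes with a mean-variance trend, Benjamini-Hochberg adjustment over all these genes), with all 7 libraries and no covariate. The second call rule, P under 0.01 and more than 2-fold, takes its thresholds from the results of the study, which applied them to edgeR on counts and whose methods name a stricter P. Single genes also had an exact two-sided permutation test over 35 arrangements of the labels. A count test was not the reported one because the deposited unit is CPM. The alternatives tried were a pseudocount of 0.1 or 0.5, genes of at least 1 CPM on average, median-of-ratios scaling, quantile normalization, robust empirical Bayes, edgeR 4.0.16 (quasi-likelihood and exact test) and DESeq2 1.42.0 on the recovered reads, the replicate number as a block, and leaving out each library. The fits were tested on simulated data, whose planted changes were larger than any difference of the 10 genes. That test says nothing about changes of their size. The genes and lists were chosen with earlier results of these data known. Named list genes are those past either call rule, at most 6 per list, plus Irs1, Eif3f, Myod1, Akt1, Nr3c1, Fkbp5 and Tsc22d3 (1 further gene of this rule is not reported here); others are marked as named after their values were seen. Likeness names the 5 nearest genes of Trim63, Fbxo32 and Fbxo40.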

Additional observations from a re-analysis of the deposited data

How the results depend on the processing

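Of the 169 values of the 10 genes under 17 alternatives, 155 kept their sign and their side of an adjusted p of 0.05, 9 lost that call and 5 changed sign. The 9 are Fbxo40 after quantile normalization, with a replicate block and without each of the 7 libraries, so that 0 of the 10 genes were called there against 1 as reported; leaving out 1 library gave 0 to 0. At P under 0.01 and 2-fold, Fbxo40 was called in each alternative. The 5 are Trim55 without EPS replicate 4 (0.012), Fbxo32 after median-of-ratios scaling (-0.010), without control replicate 4 (-0.034) and without EPS replicate 3 (-0.057), and Klf15 without control replicate 4 (0.23). Leaving out 1 library gave -0.28 to 0.012 for Trim55, -0.057 to 0.29 for Fbxo32 and -0.72 to 0.23 for Klf15. The causes were not tested. Klf15 has no value under a minimum mean of 1 CPM, since its mean lies below it.

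Over all genes, 27 had an adjusted p under 0.05 with limma, against 106 with a pseudocount of 0.1, 121 with a minimum mean of 1 CPM, 17 after quantile normalization, 290 with edgeR's quasi-likelihood test, 469 with its exact test and 497 with DESeq2. Leaving out 1 library gave 0 to 27, the 0 without EPS replicate 3 with 2224 at an unadjusted P under 0.05. It gave 5, 6 and 5 without control replicates 1, 3 and 4, 8 without EPS replicate 2 and 4 without EPS replicate 4. At P under 0.01 and 2-fold, 269 genes were called, against 601 with a pseudocount of 0.1, 629 and 691 with the 2 edgeR tests, 585 with DESeq2 and 161 with the block. Of those called, 68.8% were higher in EPS on the deposited scale, 52.8% after median-of-ratios scaling, 51.6% after quantile normalization and 52.3% to 54.2% in the count tests. Without control replicate 4, an alternative added after seeing the data, the FOXO targets called higher went from 2 to 0.

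Nothing says that equal replicate numbers mark a shared culture or day, and the numbers were not used as pairs: the deviations of same-numbered libraries correlated across genes at 0.25, -0.45 and 0.07 for replicates 1, 3 and 4, and only control replicate 4 correlated best with its own number. With the replicate block, in which EPS replicate 2 has no partner, 0 genes had an adjusted p under 0.05 with limma (1628 at an unadjusted P under 0.05), and Fbxo40 had a log2 fold change of 1.69 (adjusted p = 0.510). Cat also lost its call at P under 0.01 and 2-fold there. The levels of Klf15 ranged from 1 to 65 reads, with control replicate 3 under the floor of 3 reads, and the part of depth in this spread was not tested. Those of the other 9 genes were not near that floor.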
